A study of Homo sapiens with 4 samples.

Results

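The 43 genes described here encode the machinery that copies DNA in S phase: the MCM2 to MCM7 helicase, the proteins that load and start it, the polymerases, the sliding clamp and its loaders, the single-strand binding protein RPA, and the E2F and chromatin factors that accompany replication. They were taken by gene symbol from tables of 26255 symbols, and all 43 were listed. PSN-1 and MIA PaCa-2 are human epithelial cell lines of pancreatic tumour origin, and RNA was sequenced after transfection of a miR-4800-3p mimic, a synthetic copy of that microRNA, or of a scrambled control oligonucleotide. The 4 groups were PSN-1 mimic, PSN-1 scramble, MIA PaCa-2 mimic and MIA PaCa-2 scramble, with 1 library in each, so no value within a line has a replicate and the treatment was repeated only across lines. The stated aim was to find messenger RNAs targeted by miR-4800-3p. The level the microRNA reached in the cells was not measured here.

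As background, replication begins when the origin recognition complex, with CDC6 and CDT1, loads the MCM helicase onto DNA in G1. In S phase CDC45 and the GINS complex join MCM to form the active helicase, polymerase alpha with primase lays down primers, polymerases delta and epsilon extend them around the clamp PCNA, and FEN1 and LIG1 trim and join the lagging-strand fragments. Many of these genes are transcribed under E2F factors, which are released from the RB protein late in G1, so their messenger RNAs are most abundant in proliferating cells.

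The transfected microRNA, which a library of polyadenylated RNA does not measure, is shown because a target is recognised through its seed. In the RefSeq table (GRCh38.p14) the mature strand lies at chr4:2250091-2250109 on the minus strand, and capitals mark the seed, bases 2 to 8.
miR-4800-3p: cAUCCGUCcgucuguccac

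No replication gene had a seed match (GACGGAT or ACGGATA) in the 3' UTR or the 5' UTR of its main GENCODE transcript, against 2.12% of 11202 coding genes with a 3' UTR match. In the coding sequence 3 of the 43 genes had one (6.98%), against 4.62% of the 11202. The 3 sites are shown with 8 bases on either side, capitals marking the match, with GRCh38 coordinates, whereas hg19 is the build in the submitters' processing notes. POLE has the longest match, GACGGATA, in exon 2 of 49 at chr12:132681215-132681222 on the minus strand. GINS3 has its match in exon 2 of 3 at chr16:58403153-58403159 on the plus strand, and CHAF1B in exon 8 of 14 at chr21:36402827-36402833 on the plus strand.
POLE: agtcagtgGACGGATAagatggat
GINS3: caacaagcGACGGATcctttctg
CHAF1B: tcactcccGACGGATctttgctt

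A match is a string of letters, and use of these sites in the cells was not measured. The 3 genes did not share 1 pattern: POLE and CHAF1B lay below the scramble in both lines, while GINS3 was lower in PSN-1 and higher in MIA PaCa-2 (values below).

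The promoters of the replication genes were searched for the E2F sites TTTCCCGC and TTTGGCGC on both strands, in windows from 250 bases before to 50 bases after each RefSeq start (GRCh38.p14). A window was given for 36 of the 43 genes (not for DSCC1, GINS4, MCM4, MCM5, POLD3, RPA2 and RPA3), and 17 of the 36 (47.2%) held a site, against 2.75% of all 27305 genes in the table and 4.62% of 9255 expressed genes (averaging 1 FPKM or more). The letters CCAAT were in 22 of the 36 (61.1%, against 43.4% of the 9255), and TTTGAA or TTCGAA, the letters of the CHR element of mitotic genes, in 1 of them (2.78%, against 15.1%). Windows are printed for LIG1, UHRF1 and PCNA, 3 of the genes lower past 1.5-fold in MIA PaCa-2. Also printed are MCM6, the one window with 2 sites, and RFC1, which was higher in both lines and holds neither string. These are examples: of the genes with a window and lower past 1.5-fold in MIA PaCa-2, 5 held a site and 4 did not. GINS3, which held a site, had the highest change in MIA PaCa-2 (0.42). A gene was counted as holding a site where any of its windows did, and UHRF1 and PCNA also have windows at other starts without one (2 for UHRF1 and 1 for PCNA, not printed). Capitals mark the E2F sites on either strand.
LIG1 (chr19:48170295-48170594, minus strand): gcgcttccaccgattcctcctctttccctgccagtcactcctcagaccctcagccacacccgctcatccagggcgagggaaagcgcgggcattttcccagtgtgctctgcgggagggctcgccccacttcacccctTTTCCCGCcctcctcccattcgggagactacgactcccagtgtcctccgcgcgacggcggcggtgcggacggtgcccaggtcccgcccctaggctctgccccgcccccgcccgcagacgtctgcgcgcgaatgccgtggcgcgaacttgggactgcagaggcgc
UHRF1 (chr19:4909251-4909550, plus strand): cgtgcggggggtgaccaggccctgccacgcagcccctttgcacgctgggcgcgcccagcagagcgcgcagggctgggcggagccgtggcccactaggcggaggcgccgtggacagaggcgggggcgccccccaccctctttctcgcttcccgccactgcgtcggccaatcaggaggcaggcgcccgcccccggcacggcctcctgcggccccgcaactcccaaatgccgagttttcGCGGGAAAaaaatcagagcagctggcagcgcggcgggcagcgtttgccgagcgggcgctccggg
PCNA (chr20:5126573-5126872, minus strand): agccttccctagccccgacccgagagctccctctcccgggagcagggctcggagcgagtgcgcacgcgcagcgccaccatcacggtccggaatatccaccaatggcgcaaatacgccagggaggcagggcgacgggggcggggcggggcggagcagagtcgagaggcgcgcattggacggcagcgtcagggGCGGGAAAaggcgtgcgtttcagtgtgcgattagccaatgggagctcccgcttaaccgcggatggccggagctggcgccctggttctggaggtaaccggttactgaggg
MCM6 (chr2:135876394-135876693, minus strand): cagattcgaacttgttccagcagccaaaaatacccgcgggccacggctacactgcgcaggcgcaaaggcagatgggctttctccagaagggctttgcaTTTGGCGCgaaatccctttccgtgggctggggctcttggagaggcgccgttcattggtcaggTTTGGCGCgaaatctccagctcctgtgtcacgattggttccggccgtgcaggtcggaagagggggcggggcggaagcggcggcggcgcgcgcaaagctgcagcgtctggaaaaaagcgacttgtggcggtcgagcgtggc
RFC1 (chr4:39366313-39366612, minus strand): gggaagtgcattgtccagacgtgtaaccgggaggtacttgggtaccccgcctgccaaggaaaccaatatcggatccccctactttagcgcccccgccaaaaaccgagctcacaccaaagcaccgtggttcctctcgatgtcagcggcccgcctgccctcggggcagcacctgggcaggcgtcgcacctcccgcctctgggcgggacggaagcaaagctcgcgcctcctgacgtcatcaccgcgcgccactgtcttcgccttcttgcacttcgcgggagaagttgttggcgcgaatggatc

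Among measured genes with a promoter window, those with an E2F site were lower with the mimic in 16 of 16 cases in PSN-1 (median log2 change -0.225) and in 15 of 16 in MIA PaCa-2 (-0.47). Those with neither string were lower in 13 of 19 in PSN-1 (-0.09) and in 16 of 19 in MIA PaCa-2 (-0.34). Other forms of the E2F site were not searched for, so some of these may hold one. Outside the replication genes, genes with such a site had a median change of -0.02 in PSN-1, with 217 of 411 lower (52.8%). In MIA PaCa-2 they had -0.03, with 221 of 400 lower (55.2%). Genes with neither string had -0.01 in PSN-1 (51.9% of 8748 lower) and 0.02 in MIA PaCa-2 (47.4% of 8212 lower). These differences between genes with and without these letters were not tested.

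Levels are FPKM, fragments scaled for transcript length and library size, which allows genes to be compared within a library. A change is the log2 ratio of mimic to scramble after adding 1 to each FPKM. Adding 1 makes the change of weakly expressed genes look smaller than it is. A gene counts as measured in a line where its 2 libraries averaged at least 1 FPKM. E2F2 missed that minimum and the other 42 passed it in both lines. From whole-fragment steps in genes with 1 annotated transcript, the depth per FPKM and kb came to about 15.9 fragments in the PSN-1 mimic library and 12.6 in its scramble, and to 14.2 in the MIA PaCa-2 mimic library and 12.7 in its scramble. The counting error, given below as a counting SE, is that of the log2 ratio without the added 1. It is therefore too wide for the changes of weakly expressed genes. Among the 42 genes it ranged from 0.03 (CDC6) to 0.18 (POLE2) in PSN-1 and from 0.03 (POLD2) to 0.24 (DSCC1) in MIA PaCa-2. It leaves out all spread between cultures. The epithelial keratin genes KRT8 and KRT18 were between 495 and 923 FPKM in all 4 libraries. EPCAM was at 28.4 and 24.1 FPKM in PSN-1 but at 0.139 and 0.104 FPKM in MIA PaCa-2, KRT7 was listed at 0 in MIA PaCa-2, and CDH1 was at most 1.51 FPKM in any library. Of the 6 leukocyte genes CD3E was listed at 0 in all 4 libraries and PTPRC was at most 0.433 FPKM. CD68, a lysosomal protein gene used as a macrophage marker, was at 38.7 FPKM with the mimic and 35.3 FPKM with the scramble in PSN-1 whereas MIA PaCa-2 had 34.6 and 20.1 FPKM (0.76). In PSN-1 CD14 was at 2.70 against 4.95 FPKM (-0.68) and LYZ at 2.38 against 3.01 FPKM. Of the 4 endothelial genes 2 were measured in PSN-1, with KDR at 6.50 against 5.43 FPKM, and 0 in MIA PaCa-2. Of the 6 fibroblast and stellate cell genes 4 were measured in PSN-1 (PDGFRB at 19.6 and 20.9 FPKM) and 2 in MIA PaCa-2 (COL1A2 at 59.9 and 76.8 FPKM), all of them lower with the mimic, and the part of any such gene in the results was not tested.

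**Figure D1:**
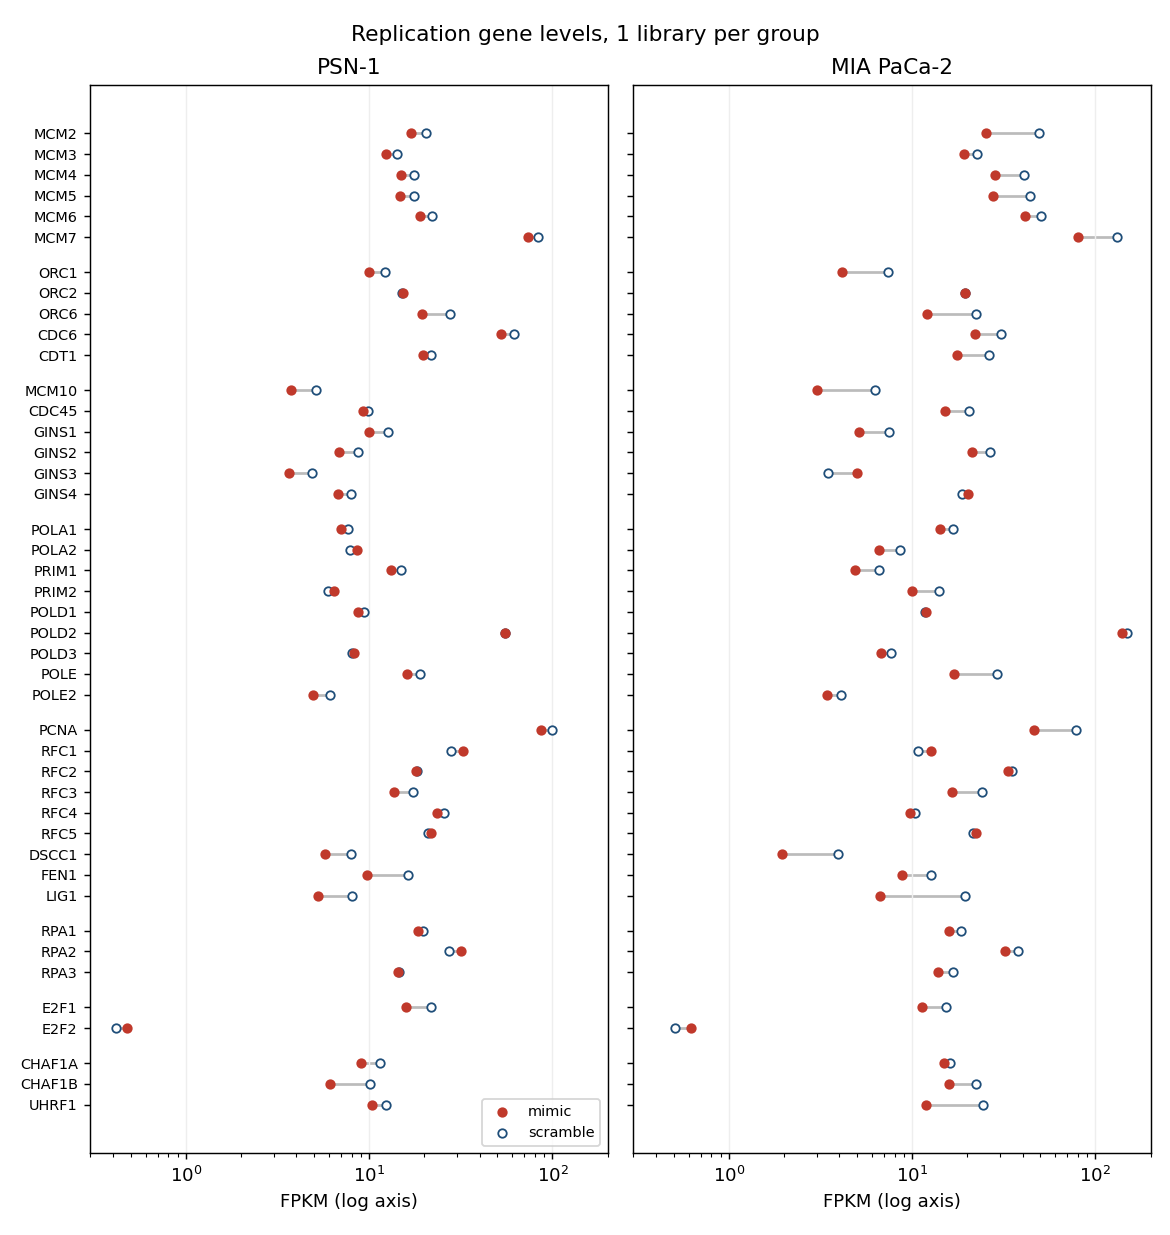
Level of each of the 43 replication genes in FPKM on a log axis, PSN-1 left and MIA PaCa-2 right, with 1 filled point for the mimic library and 1 open point for the scramble library, genes grouped by complex. Most filled points lie left of their open points, with the widest gaps in MIA PaCa-2, such as LIG1 at 6.65 against 19.4 FPKM.

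Most replication genes lay below the scramble in PSN-1 and in MIA PaCa-2, with the lower median in MIA PaCa-2. In PSN-1, 34 of 42 were lower and 8 higher, where 52.4% of all 12233 measured genes were lower and 47.6% higher, and the median change was -0.20 against -0.02 for all genes. In MIA PaCa-2, 37 of 42 were lower and 5 higher, where 47.8% of all 11484 measured genes were lower and 52.2% higher, and the median change was -0.39 against 0.01. Lower past 1.5-fold were FEN1 and CHAF1B in PSN-1 (2 of 42, with 3.87% of all genes past that size in that direction) and 11 of 42 in MIA PaCa-2 (background 4.06%), while none of the 42 was higher past 1.5-fold in either line (background 3.17% in PSN-1 and 5.43% in MIA PaCa-2). Both lines agreed in direction for 31 genes that were lower and 2 that were higher, RFC1 and RFC5. Over all genes measured in both lines, 27.6% were lower in both and 28.1% higher in both. In 19 of the 42 both lines were lower by over 0.2 (background 7.89%), and none was lower past 1.5-fold in both (background 0.609%). In these bulk samples, fewer cells in S phase and less RNA per cell cannot be told apart.

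Summed over the 43 genes, replication transcripts took 0.155% of the FPKM of the mimic library and 0.175% of that of the scramble library in PSN-1, and 0.167% against 0.230% in MIA PaCa-2. A limma model over 12423 genes estimated the mimic effect common to PSN-1 and MIA PaCa-2, with cell line as a blocking term. This leaves 1 residual degree of freedom before the spread is moderated across genes (eBayes). The model called none of the 42 genes at an adjusted p under 0.05 (over all genes it called 6 higher, 0.0483%, with 1 lower, 0.00805%). Taking p without adjustment, 18 of the 42 were under 0.05, all lower (background 4.24% lower and 4.19% higher), and leaving out the trend of the spread on expression gave 11 of the 42, and leaving out the line as a block gave 0. The smallest adjusted p among them was that of ORC6 (mean change -0.66, SE 0.153, adjusted p = 0.412 in limma), so no replication gene passed the test as changed.

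**Figure D2:**
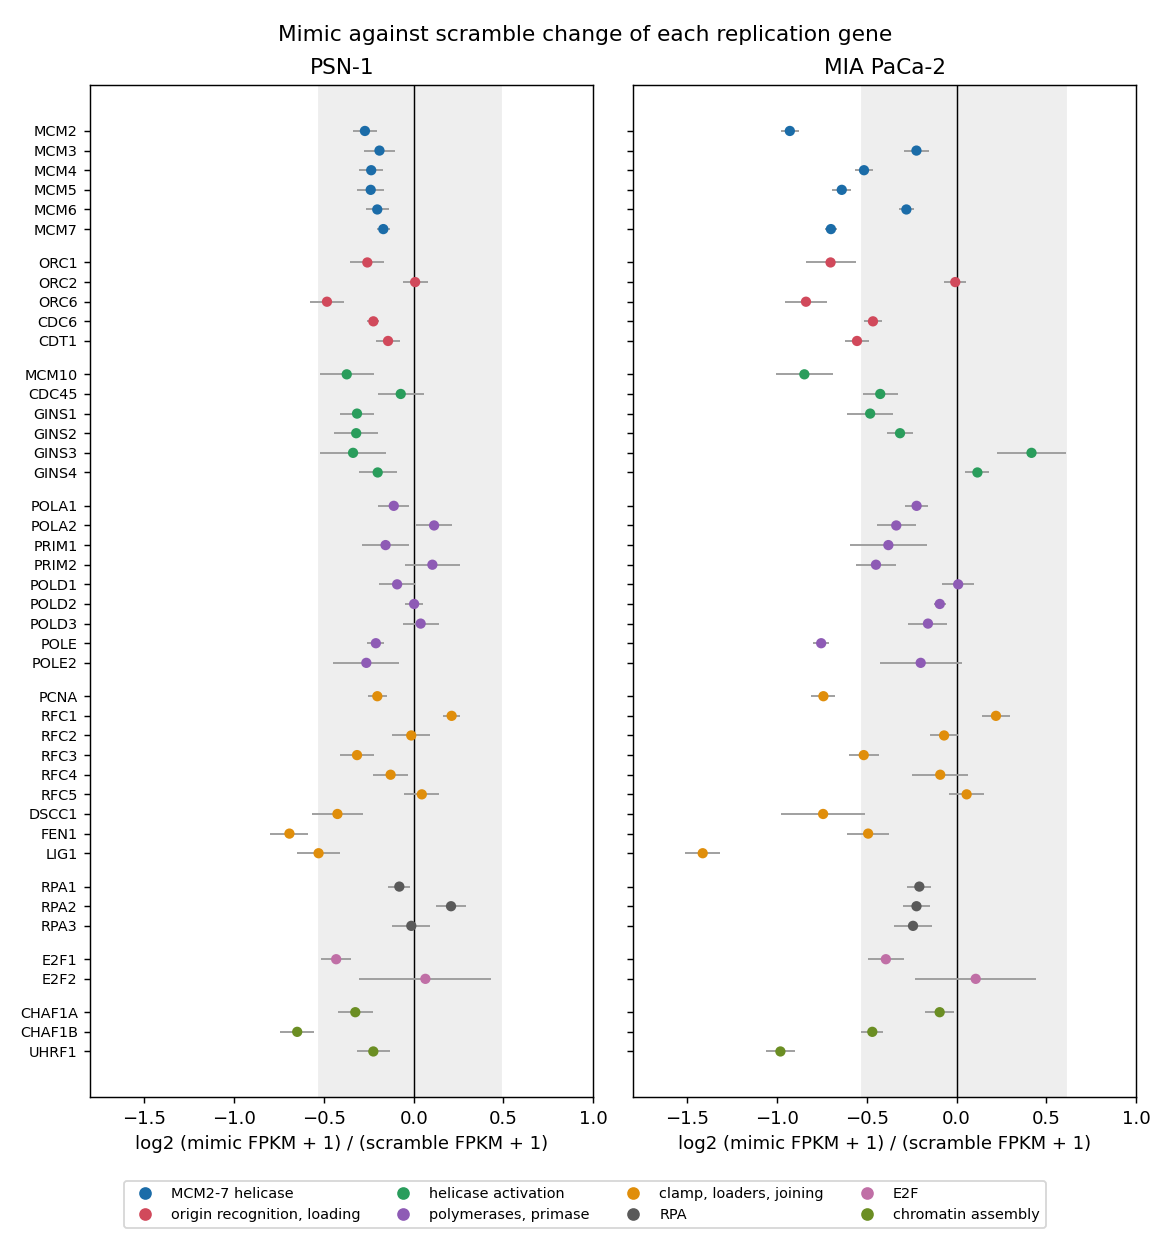
Change of each gene with the mimic, log2 ratio of mimic to scramble with 1 added to each FPKM, PSN-1 left and MIA PaCa-2 right. Bars are 1 counting SE, colours mark complexes, and the grey band spans the 5th to 95th percentile of all measured genes (-0.53 to 0.48 in PSN-1, -0.53 to 0.61 in MIA PaCa-2). In PSN-1 most points lie inside the band left of 0, and in MIA PaCa-2 LIG1, UHRF1, MCM2, MCM10 and ORC6 lie well outside it.

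The 6 MCM subunits form the ring that unwinds DNA, and every one of them was lower after the mimic in both lines. Their summed level was 151 FPKM in the mimic library against 175 FPKM in the scramble library in PSN-1, and 223 against 338 FPKM in MIA PaCa-2. MCM2 was at 16.8 FPKM with the mimic and 20.4 FPKM with the scramble in PSN-1 (log2 change -0.27, counting SE 0.07), and at 25.4 against 49.3 FPKM in MIA PaCa-2 (-0.93, counting SE 0.05). MCM2 had the lowest change of the 6 in both lines. MCM7, the most abundant subunit in every library, was at 73.7 against 83.0 FPKM in PSN-1 (-0.17) and at 80.5 against 131 FPKM in MIA PaCa-2 (-0.70). MCM5 was at 14.7 against 17.6 FPKM in PSN-1 (-0.24) and at 27.7 against 43.7 FPKM in MIA PaCa-2 (-0.64). These 3 were past 1.5-fold in MIA PaCa-2. MCM3, the least abundant in every library, was at 12.3 against 14.2 FPKM in PSN-1 (-0.19) and at 19.2 against 22.5 FPKM in MIA PaCa-2 (-0.22). MCM4 and MCM6 had changes of -0.24 and -0.20 in PSN-1 and -0.52 and -0.28 in MIA PaCa-2. In PSN-1 the 6 changes lay between -0.27 and -0.17, whereas in MIA PaCa-2 they spread from -0.93 to -0.22. The counting SEs of these 6 changes in MIA PaCa-2 were 0.03 to 0.07, which leave out the spread between cultures, so a difference between subunits was not tested.

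Of the 5 genes that mark and license origins, 4 were lower in PSN-1 and 5 in MIA PaCa-2. ORC6, the smallest subunit of the origin recognition complex, was at 19.5 FPKM with the mimic and 27.6 FPKM with the scramble in PSN-1 (-0.48, counting SE 0.09), and at 12.0 against 22.2 FPKM in MIA PaCa-2 (-0.84, counting SE 0.12). ORC1, the subunit whose level is set through the cell cycle, was at 10.0 against 12.2 FPKM in PSN-1 (-0.26) and at 4.14 against 7.37 FPKM in MIA PaCa-2 (-0.70). ORC2, a core subunit, was level in both: 15.2 against 15.1 FPKM in PSN-1 (0.01) and 19.4 against 19.5 FPKM in MIA PaCa-2 (-0.01, counting SE 0.06). The loading factors CDC6 and CDT1, which bring MCM to the origin, had changes of -0.22 and -0.14 in PSN-1 and of -0.47 and -0.55 in MIA PaCa-2. CDC6 was the most abundant of these 5 genes in every library, at 52.5 against 61.5 FPKM in PSN-1 and 21.9 against 30.6 FPKM in MIA PaCa-2.

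Helicase activation genes had the lowest median of the complexes with at least 5 measured genes in PSN-1 (-0.32), with 6 of 6 lower, while in MIA PaCa-2 4 of 6 were lower (median -0.37). MCM10, which helps start the fork, was at 3.72 FPKM with the mimic and 5.11 FPKM with the scramble in PSN-1 (-0.37, counting SE 0.15), and at 3.02 against 6.24 FPKM in MIA PaCa-2 (-0.85, counting SE 0.16). CDC45 was at 9.28 against 9.81 FPKM in PSN-1 (-0.07) and at 15.0 against 20.5 FPKM in MIA PaCa-2 (-0.43). The 4 GINS subunits, which act as 1 complex, parted in MIA PaCa-2. GINS3 was at 3.63 against 4.85 FPKM in PSN-1 (-0.34, counting SE 0.18), and at 4.99 against 3.48 FPKM in MIA PaCa-2 (0.42, counting SE 0.19). It had the highest change of all 42 genes in MIA PaCa-2, at an estimated 147 and 92 fragments. GINS4 was also higher there (20.2 against 18.6 FPKM, 0.12) and lower in PSN-1 (6.75 against 7.90 FPKM, -0.20). GINS1 and GINS2 were lower in both lines, at -0.32 each in PSN-1 and at -0.48 and -0.32 in MIA PaCa-2.

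By median the polymerase and primase genes were nearer to 0 than the MCM genes (MCM medians of -0.22 in PSN-1 and -0.58 in MIA PaCa-2). Lower were 5 of 9 in PSN-1 (median -0.09) and 8 of 9 in MIA PaCa-2 (median -0.22). POLE encodes the catalytic subunit of the leading-strand polymerase epsilon. It had the lowest change of the 9 in MIA PaCa-2, at 16.9 FPKM with the mimic and 29.2 FPKM with the scramble (-0.75, counting SE 0.04). In PSN-1 POLE was at 16.1 against 18.8 FPKM (-0.21, counting SE 0.05). Its partner POLE2 was at 4.91 against 6.10 FPKM in PSN-1 (-0.26, the lowest of the 9) and at 3.42 against 4.08 FPKM in MIA PaCa-2 (-0.20), with counting SEs of 0.18 and 0.23. The polymerase delta genes POLD1, POLD2 and POLD3 stayed within 0.16 of 0 in both lines (POLD4 is given below), among them POLD2, the most abundant of the 9, at 55.4 against 55.3 FPKM in PSN-1 and 139 against 148 FPKM in MIA PaCa-2. POLD1, the catalytic subunit, was at 8.72 against 9.36 FPKM in PSN-1 (-0.09) and at 11.9 against 11.8 FPKM in MIA PaCa-2 (0.01). POLA2, a subunit of polymerase alpha, was at 8.60 against 7.87 FPKM in PSN-1 (0.11) and at 6.59 against 8.59 FPKM in MIA PaCa-2 (-0.34). PRIM2, the large primase subunit, was at 6.42 against 5.91 FPKM in PSN-1 (0.10) and at 10.0 against 14.0 FPKM in MIA PaCa-2 (-0.45), a value made uncertain by a near-identical copy of part of this gene. POLA1, PRIM1 and POLD3 had changes of -0.11, -0.16 and 0.04 in PSN-1 and of -0.22, -0.38 and -0.16 in MIA PaCa-2. The counting SE of PRIM1 in MIA PaCa-2 was 0.21.

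The clamp, its loaders and the enzymes that finish lagging-strand fragments held both the lowest and the highest changes in PSN-1, with 7 of 9 lower in each line. LIG1, the ligase that seals the fragments, was at 5.24 FPKM with the mimic and 8.01 FPKM with the scramble in PSN-1 (-0.53, counting SE 0.12), and at 6.65 against 19.4 FPKM in MIA PaCa-2 (-1.41, counting SE 0.10). It was the one replication gene lower past 2-fold in MIA PaCa-2 (background 0.81%), where 0.314% of measured genes were lower still. FEN1, the flap nuclease that trims them, was at 9.67 against 16.2 FPKM in PSN-1 (-0.69, counting SE 0.11) and at 8.77 against 12.7 FPKM in MIA PaCa-2 (-0.49, counting SE 0.12). FEN1 had the lowest change of the 42 in PSN-1. PCNA, the sliding clamp, was at 86.5 against 99.7 FPKM in PSN-1 (-0.20) and at 46.4 against 78.2 FPKM in MIA PaCa-2 (-0.74). Processed copies of PCNA lie elsewhere in the genome, and how reads were shared among them is not given in the sources used here. DSCC1, which joins an alternative clamp loader, was at 5.70 against 7.99 FPKM in PSN-1 (-0.42, counting SE 0.14) and at 1.94 against 3.92 FPKM in MIA PaCa-2 (-0.74, counting SE 0.24).

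Among the 5 replication factor C genes, which encode the clamp loader, the picture was mixed. RFC1, the large subunit, was at 32.6 FPKM with the mimic and 28.0 FPKM with the scramble in PSN-1 (0.21, counting SE 0.05), and at 12.6 against 10.7 FPKM in MIA PaCa-2 (0.22, counting SE 0.08). It was the gene of the 42 with the highest change in PSN-1, and it was higher by the same size in both lines. RFC3 was lower in both (-0.32 in PSN-1 and -0.52 in MIA PaCa-2). RFC2, RFC4 and RFC5 stayed within 0.13 of 0 in both lines, at -0.01, -0.13 and 0.05 in PSN-1 and -0.07, -0.09 and 0.06 in MIA PaCa-2.

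The 3 RPA genes, whose proteins coat single-stranded DNA together, were lower in 2 of 3 cases in PSN-1 (median -0.01) and in 3 of 3 in MIA PaCa-2 (median -0.22). RPA1 was at 18.5 FPKM with the mimic and 19.6 FPKM with the scramble in PSN-1 (-0.08), and at 15.9 against 18.5 FPKM in MIA PaCa-2 (-0.21). RPA2 was at 31.6 against 27.2 FPKM in PSN-1 (0.21) and at 32.1 against 37.6 FPKM in MIA PaCa-2 (-0.22), so it lay on opposite sides of the scramble in the 2 lines. RPA3 was at 14.4 against 14.6 FPKM in PSN-1 (-0.01) and at 13.9 against 16.6 FPKM in MIA PaCa-2 (-0.24).

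E2F1, an activating transcription factor of these genes, was lower in both lines by like amounts, at 15.9 FPKM with the mimic and 21.8 FPKM with the scramble in PSN-1 (-0.43, counting SE 0.08), and at 11.3 against 15.2 FPKM in MIA PaCa-2 (-0.39, counting SE 0.10). E2F2 was at 0.477 against 0.412 FPKM in PSN-1 and 0.619 against 0.504 FPKM in MIA PaCa-2, under the minimum of 1 FPKM. Chromatin assembly factor 1 places histones behind the fork. Its middle subunit gene CHAF1B was at 6.09 against 10.1 FPKM in PSN-1 (-0.65, counting SE 0.09) and at 15.8 against 22.3 FPKM in MIA PaCa-2 (-0.47, counting SE 0.06). CHAF1A, the large subunit gene, was at 8.97 against 11.5 FPKM in PSN-1 (-0.33) and at 14.9 against 16.0 FPKM in MIA PaCa-2 (-0.09). UHRF1, which guides maintenance methylation to new DNA, was at 10.4 against 12.3 FPKM in PSN-1 (-0.22, counting SE 0.09) and at 11.9 against 24.4 FPKM in MIA PaCa-2 (-0.98, counting SE 0.08). E2F1, CHAF1A and CHAF1B were thus at least as far below the scramble in PSN-1 as in MIA PaCa-2, unlike UHRF1.

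**Figure D3:**
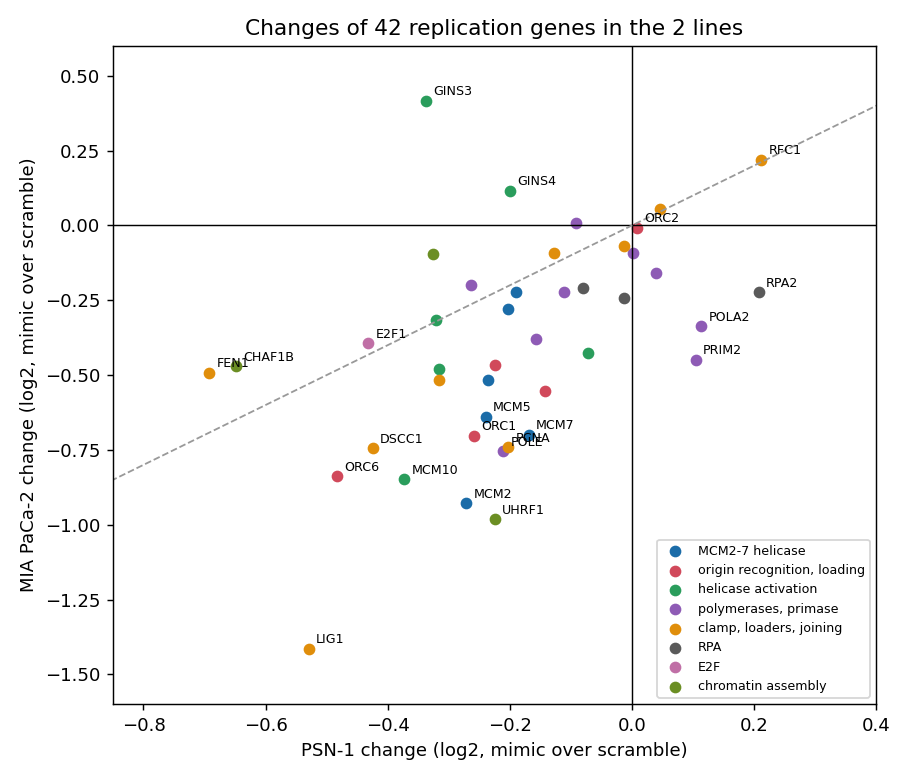
Change with the mimic in PSN-1 (x axis) against that in MIA PaCa-2 (y axis), both log2 ratio of mimic to scramble with 1 added to each FPKM, for the 42 measured genes, coloured by complex. The dashed line marks equal changes, and 30 of the 42 points lie below it, with LIG1, UHRF1 and MCM2 far below and GINS3 alone far above.

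The change was higher in PSN-1, and so mostly nearer to 0, for 30 of the 42 genes, against 45.5% of all genes measured in both lines. It differed by over 0.5 between the lines for 8 of the 42 genes, a share near the 16.9% of all genes. In one direction were LIG1 (PSN-1 minus MIA PaCa-2 0.88), UHRF1 (0.76), MCM2 (0.66), PRIM2 (0.55), POLE (0.54), PCNA (0.54) and MCM7 (0.53). GINS3 (-0.75) lay in the other direction. With 1 library per group these differences could not be tested. Across the 42 genes the changes in the 2 lines had a Spearman correlation of 0.534, against 0.198 across all 10678 genes, as a description of genes that share the same 4 libraries. Opposite directions were seen for 9 of the 42 (background 44.2%).

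Replication genes outside the 43 were followed in 6 lists. Together 46 of 84 measured were lower in PSN-1 (54.8%, median -0.04), near the 52.4% and median of -0.02 of all genes. In MIA PaCa-2 63 of 83 were lower (75.9%, median -0.23), against 47.8% and a median of 0.01 for all genes. The same shares of all genes apply to each list below. The 9 genes of deoxynucleotide supply, which make the building blocks of DNA, had the medians closest to those of the 42 measured machinery genes in both lines, of the 6 lists: 8 of 9 were lower in PSN-1 (median -0.26) and 9 of 9 in MIA PaCa-2 (median -0.36). RRM1, the large subunit of ribonucleotide reductase, was at 22.7 FPKM with the mimic and 35.0 FPKM with the scramble in PSN-1 (-0.60), and at 18.1 against 38.8 FPKM in MIA PaCa-2 (-1.05). DUT, which removes dUTP, had the highest change of this list in MIA PaCa-2 (-0.15).

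Of 15 further origin and firing genes, 9 were lower in PSN-1 (median -0.04) and 15 in MIA PaCa-2 (median -0.32). The lowest was RECQL4 in PSN-1 (14.4 against 19.7 FPKM, -0.43) and TICRR, which brings CDC45 to origins, in MIA PaCa-2 (2.92 against 6.09 FPKM, -0.85), while TICRR had 0.05 in PSN-1. The highest was MCM9, an MCM relative used in repair, in PSN-1 (3.83 against 2.26 FPKM, 0.57) and ORC4 in MIA PaCa-2 (-0.05). Of 19 replisome and fork genes, 13 were lower in PSN-1 (median -0.10) and 14 in MIA PaCa-2 (median -0.25). POLD4, the small subunit of polymerase delta, lay on opposite sides: 26.8 against 39.8 FPKM in PSN-1 (-0.55, the lowest of the list) and 35.6 against 23.7 FPKM in MIA PaCa-2 (0.57, the highest). Its difference between the lines was not tested. TIPIN, of the fork protection complex, was the highest in PSN-1 (0.32) and ATAD5, which unloads PCNA, the lowest in MIA PaCa-2 (-0.61).

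Histone chaperone and DNA methylation genes were lower in 2 of 8 in PSN-1 (median 0.04) and 5 of 8 in MIA PaCa-2 (median -0.23). ASF1B, a histone chaperone, was the lowest in both lines (-0.12 in PSN-1 and -0.67 in MIA PaCa-2), HAT1 the highest in PSN-1 (0.29) and RBBP4 the highest in MIA PaCa-2 (0.09). In the E2F and RB network 9 of 20 were lower in PSN-1 (median 0.02) and 15 of 19 in MIA PaCa-2 (median -0.21). CDC25A, a phosphatase that activates CDK2, was the lowest in PSN-1 (-0.38) and LIN37 the highest (0.46). E2F8, a repressive E2F factor, was the lowest in MIA PaCa-2 (1.03 against 2.94 FPKM, -0.95) and E2F5 the highest (6.56 against 3.47 FPKM, 0.76). Checkpoint and CDT1 turnover genes did not follow the 43: 5 of 13 were lower in each line, with medians of 0.05 in PSN-1 and 0.02 in MIA PaCa-2. In that list DTL, which directs CDT1 to degradation, was the lowest in both lines (-0.25 in PSN-1 and -0.57 in MIA PaCa-2). WEE1, the kinase that holds back CDK1, was the highest in MIA PaCa-2 (82.4 against 42.6 FPKM, 0.94), and CDKN1A, the CDK inhibitor p21, the highest in PSN-1 (12.8 against 10.5 FPKM, 0.26).

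The 16 G2/M genes, which act after replication, were set beside the 43 because both mark proliferating cells. In PSN-1 12 of 16 were lower (median -0.14), against 52.4% of all genes. In MIA PaCa-2 16 of 16 were lower (median -0.615), against 47.8% of all genes. BUB1B was the lowest of them in PSN-1 (-0.47) and KIF20A the highest (0.20), while in MIA PaCa-2 PLK1 was the lowest (-1.09) and NUSAP1 the highest (-0.365). The median of the 42 measured replication genes thus lay below that of the G2/M genes in PSN-1 and above it in MIA PaCa-2, and this was not tested.

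**Figure D4:**
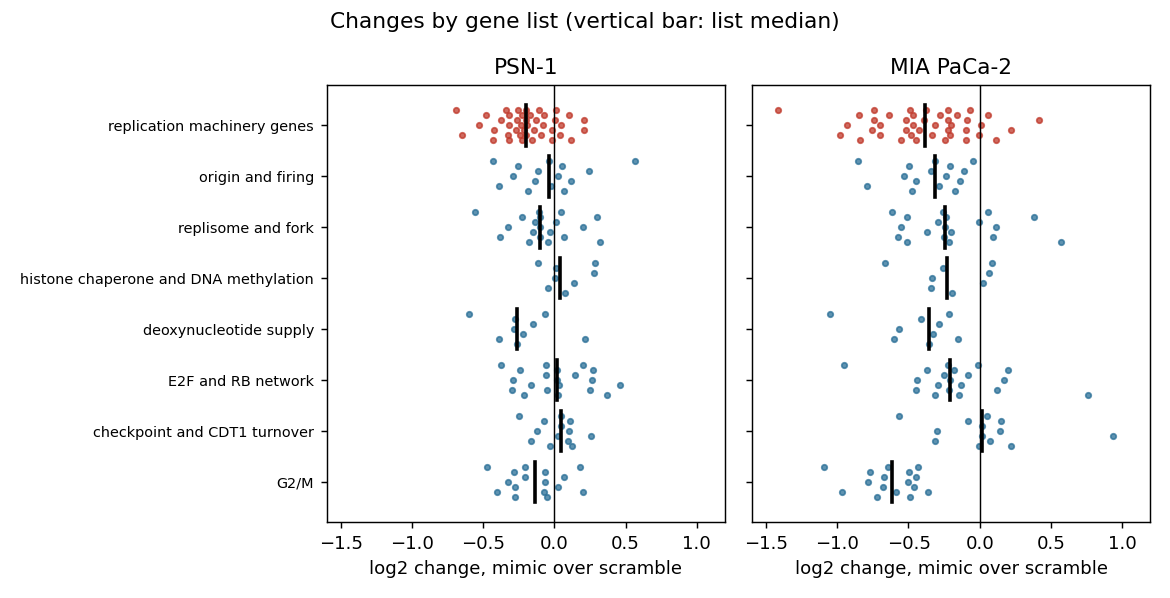
Change with the mimic of each measured gene by list, log2 ratio of mimic to scramble with 1 added to each FPKM, PSN-1 left and MIA PaCa-2 right, 1 point per gene and a vertical bar at the list median. The replication machinery genes (top row) have medians of -0.20 in PSN-1 and -0.39 in MIA PaCa-2, and the checkpoint list is centred near 0 in both.

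Levels of the replication genes were also compared between the lines, over both oligonucleotides. Both PSN-1 libraries lay above both MIA PaCa-2 libraries for 11 of 42 genes (background 40.0%) and below both for 17 of 42 (background 39.0%). In the same limma fit, 10 of 42 were higher in PSN-1 at an adjusted p under 0.05 (29.2% of all genes) and 14 of 42 lower (27.3% of all genes), shares near those of all genes. Of the 6 MCM subunits 5 were lower in PSN-1, MCM6 the most (log2 difference -1.13, SE 0.123, adjusted p = 0.00155 in limma), and MCM7 missed the threshold (-0.39, adjusted p = 0.0834 in limma). Subunits of 1 complex differed in opposite directions. GINS1 was higher in PSN-1 (10.0 and 12.7 FPKM, against 5.10 and 7.51 FPKM in MIA PaCa-2, adjusted p = 0.0101 in limma). GINS2 was lower in PSN-1 (6.79 and 8.72 FPKM, against 21.2 and 26.6 FPKM, adjusted p = 0.000909 in limma), as was GINS4. RFC1 and RFC4 were higher in PSN-1 (log2 differences 1.31 and 1.21) and RFC2 lower (-0.88), and PRIM1 was higher (1.16) while POLA1 (-0.97) and PRIM2 (-0.84) were lower. CDC6 was higher in PSN-1 (1.10, SE 0.129, adjusted p = 0.0019 in limma), and POLD2 had the smallest adjusted p of the 42 (-1.36, SE 0.103, adjusted p = 0.000519 in limma). The labels name no separate cultures of a line. In this fit a gene's spread comes from how far its mimic change disagrees between the lines. The eBayes step then moderates it towards the trend over all genes. No group has a repeat, so spread between cultures is mixed with the disagreement of the lines and was not measured by itself.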

How the data were processed

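The authors deposited, per the file headers, 1 FPKM value for each gene symbol in each of 4 libraries. Total RNA (miRNeasy Micro) went into stranded TruSeq mRNA libraries, per the labels' protocols. Of tools and builds, TopHat2 2.1.1, Cuffdiff 2.2.1 and hg19 are listed in the submitters' processing notes, without role or order. Annotation, strand setting and scaling were not given in the sources used here. Groups follow the sample titles. Depth was estimated from the modal value of 1 fragment among 2140 single-transcript genes, assuming fragments of 200 bases. Limma 3.58.1 (R 4.3.3, lmFit, eBayes with trend, two-sided, Benjamini-Hochberg) was fitted to log2(FPKM + 1) for the 12423 genes averaging 1 FPKM or more. Its terms were oligonucleotide and cell line. The code was also run on data simulated under limma's own model, which cannot show whether that model suits these libraries. The pairing is by line. Seed sites used 1 main transcript per gene of GENCODE release 29, joined by symbol (23679 of 26255 symbols, 43 of 43 replication genes); promoters and the microRNA came from RefSeq. The genes and lists were chosen with earlier results of these data known. Named genes are, per complex, the lowest and highest change in each line, those past 1.5-fold, and those differing by over 0.5 between lines; of other lists, the lowest, the highest and any past 2-fold. 1 gene that this rule names is not reported here. Alternatives were another pseudocount, filters, scalings, removal of the trend on transcript GC content, and limma without trend or line block. Python 3.11.15 was used.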

Additional observations from a re-analysis of the deposited data

Results flagged for a closer look

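9 replication genes had changes of opposite sign in the lines, in 1 pair of libraries each, and the differences were not tested. The largest was GINS3, with PSN-1 minus MIA PaCa-2 at -0.755 on the log2 scale (-0.34 in PSN-1 and 0.42 in MIA PaCa-2), followed by PRIM2 at 0.553 (0.10 and -0.45). POLA2 differed by 0.45 (0.11 and -0.34), RPA2 by 0.431 (0.21 and -0.22) and GINS4 by -0.316 (-0.20 and 0.12). POLD3 differed by 0.198, POLD1 by -0.101, POLD2 by 0.096 and ORC2 by 0.016, each with both changes within 0.16 of 0. Of all genes measured in both lines, 44.2% had opposite signs.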

How the results depend on the processing

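The counts of lower genes, in all and by complex, stayed within 1.5 times their reported values under another pseudocount, no filter, a minimum of 5 FPKM, both scalings, removal of short non-coding genes and removal of the GC trend. Over these settings 32 to 35 genes were lower in PSN-1 and 34 to 38 in MIA PaCa-2, with medians of -0.217 to -0.192 and -0.452 to -0.376; 2 to 3 and 9 to 12 were lower past 1.5-fold, and 28 to 33 were lower in both lines. Limma called 0 replication genes for the mimic under each setting. Its 18 genes with an unadjusted p under 0.05 became 12 of 43 without a filter and 16 of 38 at a minimum of 5 FPKM. Removing the GC trend gave 14, and leaving out the trend of the spread on expression gave 11. Leaving out the line as a block gave 0, in a fit where the difference between lines enters the spread. Between the lines, limma called 9 to 10 genes higher and 14 to 15 lower in PSN-1. In MIA PaCa-2, DSCC1, POLE2, PRIM1, GINS3 and MCM10 had the largest counting SEs of the 42 genes, so depth limits them most there.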
